A study of Schmidtea mediterranea with 50 samples.

Results

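The 150 transcripts described here were lower at day 15 after either of 2 knockdowns in the planarian *Schmidtea mediterranea*. This freshwater flatworm renews its tissues from stem cells called neoblasts. The 150 were chosen from the 35057 transcripts in the data by their levels in whole worms. For each RNAi and day, the change is the mean of log2(RPKM + 0.5) minus that of the control libraries of the same day, where RPKM is the number of reads scaled by transcript length and library size. A transcript was taken if its mean over all 50 libraries was at least 2 RPKM, if its change at day 15 was -0.8 or lower in both *chd4*(RNAi) and *p53*(RNAi) worms, and if its *p53*(RNAi) changes of days 3 and 6 averaged above -0.3. The 150 with the lowest sum of both day 15 changes were kept, and 129 more that met this were not. Little early change was asked for only in *p53*(RNAi), so a late loss in *chd4*(RNAi) was not required. All 150 also passed the filter on low values used for the tests.

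Worms of the asexual strain CIW4 were fed liver paste mixed with bacteria that make double-stranded RNA, on days 0, 3 and 6. The RNA matched *chd4*, *p53* or, in the controls, *unc22*, a nematode muscle gene that served as the non-targeting control. Worms sampled from day 9 on had thus been fed 3 times and then fasted. Those of day 3 had been fed fewer times. Whether worms of days 3 and 6 were taken before or after that day's feeding is not given. Each library is polyA-selected RNA from 10 pooled whole worms, and each group has 3 biological replicates, except *p53*(RNAi) at day 18, for which replicates 2 and 3 were analysed. The authors state that they removed 1 outlier from the series without naming it. *unc22*(RNAi) and *p53*(RNAi) worms were sampled at days 3, 6, 9, 12, 15 and 18, and *chd4*(RNAi) worms only up to day 15, because they died before day 18.

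As background, *chd4* encodes a subunit of a chromatin remodelling complex and *p53* a transcription factor, and both are needed for the differentiation of neoblast progeny into the epidermis. The planarian gut is a branched, blind-ended tube of phagocytes, which take up and digest food inside the cell, and goblet cells, which secrete. It stores nutrients, makes carriers for lipid and is itself renewed from neoblasts, with *nkx-2.2* among the transcription factors expressed in it.

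Of the 150 members, 100 had a Swiss-Prot description in the study's supplementary tables and 50 had none. Where an in situ pattern was given, for 15 members, it was gut in all 15, with 1 of them spelled "gu". The tables hold only 2338 transcripts, which the authors listed because of their changes in these samples, so neither descriptions nor patterns were drawn independently of the loss. All lists below were drawn from these 2338. Counts of falls and rises in a list thus describe the listed transcripts and not a gene family. The transcripts come from an assembly and have no genome position here. Their lengths, read from the steps of the RPKM values, ran from 252 to 17504 bases with a median of 1306, against a median of 738 for the 159 transcripts that were also at -0.8 or lower in both at day 15 but averaged -0.3 or lower at days 3 and 6 of *p53*(RNAi).

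For 16 members the study's primer table gives the stretches by which a transcript was cloned for in situ hybridization. Those of 5 members are shown because the results below turn on them and because they identify the transcript that was seen in the gut. The capitals are bases that pair with the transcript or its complement, written 5′ to 3′, and the cloning tail of 13 bases that all primers carry is left out.
nkx-2.2 (SMED30011793), left: CAAATGGTGACTGTGTCAAG
nkx-2.2 (SMED30011793), right: CCATGAAGAATTAGAGCCAG
vitellogenin (SMED30003809), left: GAATCGTGTGCTAGTAGCTG
vitellogenin (SMED30003809), right: AGTCTACTGACAATGCCGAC
digestive cysteine proteinase 2 (SMED30018252), left: CTCAAGACGACTTATTTGGG
digestive cysteine proteinase 2 (SMED30018252), right: TAGACCAAAGGATAGCTTGC
D-aspartate oxidase (SMED30033916), left: GAGGCAACAACTCCAAATAC
D-aspartate oxidase (SMED30033916), right: TCTGAACATCCCCAGAATAG
copper-transporting ATPase 2 (SMED30008855), left: ACCTGATAATGGCATCTGAC
copper-transporting ATPase 2 (SMED30008855), right: GCTAAAATATGTGAGTGGGG

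The libraries held 13.9 to 26.3 M reads (median 19.1), as recovered from the RPKM steps, and 1 RPKM on a transcript of typical length was about 12 reads. Of 35057 transcripts, 25079 were tested. The targeted genes were lower in the libraries labelled for them, *chd4* (SMED30024368) by a log2 change of -1.78 at day 12 and *p53* (SMED30026364) by -3.91 at day 18. Among the libraries, 2 stood apart from their replicates across all transcripts, *unc22*(RNAi) day 6 replicate 2 and *p53*(RNAi) day 9 replicate 1. Several results that use them are also given without both. For *p53*(RNAi) against the controls at day 9, the counts with 1 library left out at a time are given at the end.

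The loss became visible between day 6 and day 9. The median log2 change of the members in *chd4*(RNAi) was -0.04 at day 3, -0.30 at day 6, -1.31 at day 9, -2.29 at day 12 and -3.53 at day 15. In *p53*(RNAi) it was -0.14 and -0.13 at days 3 and 6, -0.77 at day 9, -0.97 at day 12, -1.44 at day 15 and -1.21 at day 18. The changes of both RNAi at day 15 and of *p53*(RNAi) at days 3 and 6 chose the members and are given as description only. Over all tested transcripts the median change stayed between -0.01 and 0.01 on each of these days. The *chd4*(RNAi) change fell at every step from day 6 to day 15 in 144 of the 150 members. The last of these steps was favoured by the rule, which kept the lowest day 15 sums. No share over all transcripts was taken for this count. A change of -0.8 or lower was first reached at day 6 by 13 members in *chd4*(RNAi), at day 9 by 114 and at day 12 by 23. At or below -0.8 on these days were 13, 126 and 149 members, against 164, 798 and 1190 of all 25079 tested. In *p53*(RNAi) such a change was first reached at day 9 by 69, at day 12 by 39 and at day 15 by 42. Of all tested transcripts, 614 and 606 were at or below -0.8 at days 9 and 12 of *p53*(RNAi). Here the rule, which asked for little change at days 3 and 6 and for -0.8 or lower at day 15, largely fixed this course. Nothing is read from the order of the knockdowns. In whole worms, fewer cells that carry a transcript and less of it per cell cannot be told apart.

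**Figure D1:**
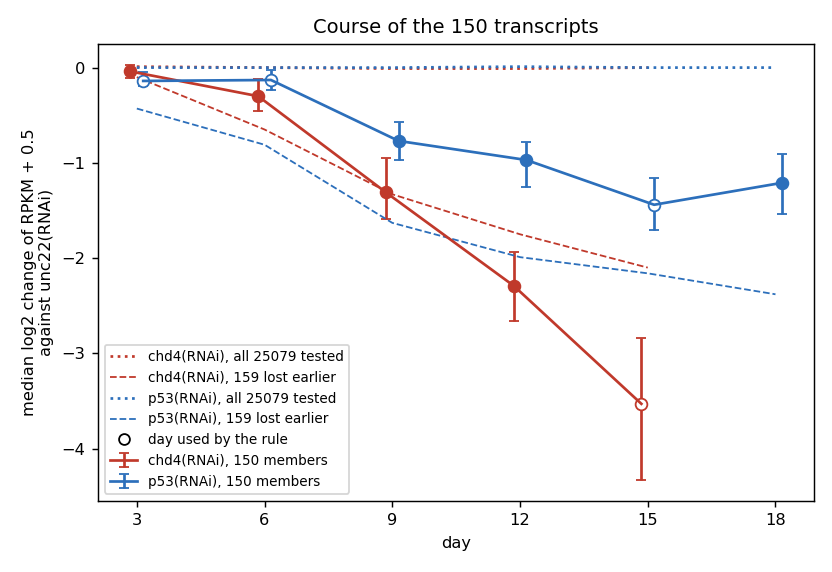
Median log2 change of RPKM + 0.5 against unc22(RNAi) (vertical axis) by day (horizontal axis), for the 150 members (solid lines, bars from the first to the third quartile), the 159 transcripts lost earlier in p53(RNAi) (dashed) and all 25079 tested (dotted), with open circles on the days that the rule used. The members in chd4(RNAi) go from -0.30 at day 6 to -3.53 at day 15, those in p53(RNAi) stay between -0.77 and -1.44 from day 9 on, and all transcripts stay near 0.

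The loss was visible in the summed level of the members, which a few abundant ones dominate. The members made up 4.67 ± 0.164% of all RPKM in *unc22*(RNAi) at day 9 and 4.82 ± 0.142% at day 12 (SD, n = 3 each). In *chd4*(RNAi) the share was 2.24 ± 0.0561% at day 9 and 1.13 ± 0.316% at day 12 (n = 3 each). In *p53*(RNAi) it was 2.95 ± 0.361% at day 9, 2.64 ± 0.213% at day 12 (n = 3 each) and 1.87 ± 0.259% at day 18 (n = 2), against 4.56 ± 0.14% in the day 18 controls. No knockdown library of days 9, 12 or 18 overlapped the controls of its day, whose lowest was 4.45%. Without the 3 highest members of each library the share was 2.67 to 2.73% in the day 12 controls and 0.465 to 0.737% in *chd4*(RNAi). The *chd4*(RNAi) libraries of day 12 differed most among themselves, from 0.86 to 1.48%.

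**Figure D2:**
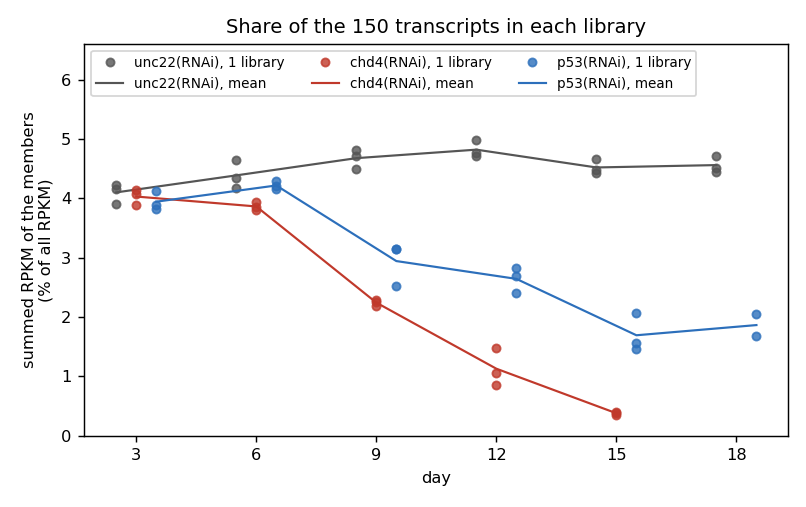
Summed RPKM of the 150 members as a percentage of all RPKM (vertical axis) in each of the 50 libraries (points, offset sideways by RNAi) by day, with lines through the group means. The unc22(RNAi) libraries stay between 3.91 and 4.98%, while chd4(RNAi) falls to 0.358 to 0.395% at day 15 and p53(RNAi) to 1.46 to 2.06%.

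On the days that the rule did not use, nearly all members were lower than their controls. In *chd4*(RNAi) 142 of the 150 were lower at day 9 and 150 at day 12 (limma, adjusted p under 0.05), against 12.5% and 16.6% of all tested transcripts. By more than 1 on the log2 scale, 109 were lower at day 9 and 149 at day 12, against 2.07% and 3.27%. In *p53*(RNAi) 136 were lower at day 9, 147 at day 12 and 148 at day 18, against 11.5%, 13.4% and 19.3%. By more than 1, 35, 69 and 100 were lower on these days, against 1.48%, 1.53% and 3.56%. No member was higher in any of these 5 comparisons, in which 12.3% to 20.2% of all transcripts were (13.1% and 17.2% in *chd4*(RNAi), 12.3%, 15.0% and 20.2% in *p53*(RNAi)), and 129 were lower in all 5. At day 12 every *chd4*(RNAi) library lay below every control library for all 150 members, against 21.0% of the tested transcripts, and at day 18 every *p53*(RNAi) library did so for 149, against 27.9%. On the other days this held for 146 members at day 9 of *chd4*(RNAi) and for 146 and 147 at days 9 and 12 of *p53*(RNAi), against 20.8%, 14.3% and 17.5%. The *chd4*(RNAi) and *p53*(RNAi) values of days 9 and 12 were set against the same controls.

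Before day 9 the *chd4*(RNAi) worms showed little change, in libraries that share their controls with the *p53*(RNAi) days that the rule used. At day 3 no member was called by limma, against 0.159% of all transcripts called lower and 0.179% higher, with 4 lower and 1 higher at an unadjusted p under 0.05 and 2 called when only the groups compared were fitted. At day 6 limma called 46 lower, against 3.84%, and none higher, against 3.11%, with a median of -0.30. This count rested on single libraries, since it was 22 without *chd4*(RNAi) day 6 replicate 3, 21 without *unc22*(RNAi) day 6 replicate 2 and 21 to 37 over all libraries left out in turn. Replicate 2 of *unc22*(RNAi) day 6, which stood apart, was the highest of its group for 129 of the 150 members, against 39.9% of all tested transcripts, and replicate 3 of *chd4*(RNAi) day 6 the lowest for 116, against 38.7%.

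The loss in *chd4*(RNAi) deepened between days 9 and 12. In *p53*(RNAi) the share of members that passed the test of a deeper loss lay near that of all transcripts. The change of the *chd4*(RNAi) effect from day 9 to day 12 had a median of -1.07 on the log2 scale, and 125 members passed limma's test of this difference in the direction of a deeper loss, against 2.35% of all transcripts. None passed in the other direction, against 1.84%, and 149 had a lower change at day 12 than at day 9. The rule's choice of the deepest day 15 changes favoured such a deepening. Of the 129 that met the rule but were not kept, 45 passed the test (median -0.4). Of the 159 lost earlier in *p53*(RNAi), 48 did (median -0.44). In *p53*(RNAi) the step from day 9 to day 12 had a median of -0.22. Past the test were 7 members, against 4.32%, and none in the other direction, against 2.58%, but 139 had a lower change at day 12. The step from day 12 to day 18 had a median of -0.19. Past the test were 13 toward a deeper loss, against 6.23%, and 1 toward a smaller one, against 5.53%. The change was lower at day 18 than at day 12 in 114 members. For these counts of lower changes no share over all transcripts was taken. The 7 became 2 without both libraries that stood apart. The 13 ranged from 6 without *p53*(RNAi) day 18 replicate 3 to 20 without *p53*(RNAi) day 12 replicate 1. Whether the step of one RNAi differed from that of the other was not tested.

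At day 12 the loss was larger in *chd4*(RNAi), which the choice of members favoured. At day 15, which the rule used, the *chd4*(RNAi) change was below that of *p53*(RNAi) in 149 members. The median difference between the knockdowns was -1.32, 142 members were lower in the *chd4*(RNAi) libraries than in those of *p53*(RNAi), against 14.8% of all transcripts, and 1 was higher, against 12.8%. At day 9 the median difference was -0.51, with 91 lower, against 14.7%, and 5 higher, against 12.5%. Without both libraries that stood apart, 69 were lower at day 9 and 143 at day 12. The 5 that were higher in *chd4*(RNAi) at day 9 were vitellogenin (SMED30003809), a chymotrypsin-like elastase (SMED30031112), a cAMP-dependent protein kinase (SMED30033358), mesh (SMED30010045) and SMED30026114, which has no description. The kinase and mesh were named after their values were seen.

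Across the 150 members, the change in *chd4*(RNAi) at day 12 and that in *p53*(RNAi) at day 18, which share no library, had a Pearson's r of 0.46 and a Spearman's rho of 0.40. These are descriptions over transcripts, which are not independent, of a set chosen for its loss in both.

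**Figure D3:**
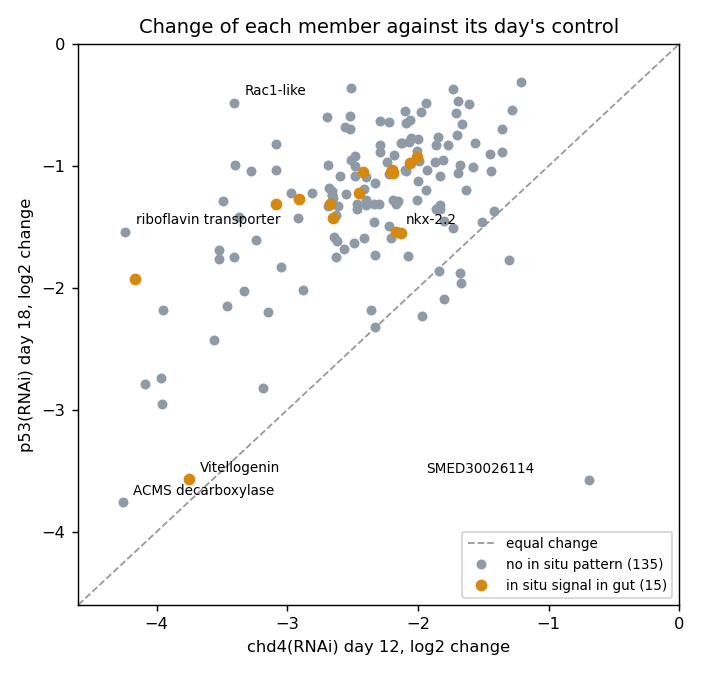
Log2 change of each of the 150 members in p53(RNAi) at day 18 (vertical axis) against that in chd4(RNAi) at day 12 (horizontal axis), each against unc22(RNAi) of its day, with the 15 members that have a gut in situ pattern in another colour and a dashed line of equal change. Most points lie above the line, with a larger loss in chd4(RNAi), vitellogenin lies close to it at -3.75 and -3.57, and SMED30026114 lies far below it at -0.69 and -3.58.

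*nkx-2.2* (SMED30011793) encodes a homeobox transcription factor, was seen in the gut by in situ hybridization, and was the only member with a name in the study's list of candidates. It was at 66.8, 71.3 and 67.6 RPKM in *unc22*(RNAi) at day 12 and at 10.7, 20.7 and 14.7 RPKM in *chd4*(RNAi), a log2 change of -2.17 (SE 0.14, adjusted p = 8e-16). Its *p53*(RNAi) libraries of day 18 were at 28.2 and 18.4 RPKM, against 69.4, 68.7 and 63.3 RPKM (log2 -1.54, SE 0.16, adjusted p = 2.7e-10). The libraries of either knockdown lay wholly below their controls. The other transcription factor among the members, a homologue of LIM/homeobox Lhx1 (SMED30014138), had log2 changes of -2.24 at day 12 of *chd4*(RNAi) and -0.97 at day 18 of *p53*(RNAi). Both are part of 18 transcripts listed as transcription factors and secreted signals. Of these, 8 fell and 8 rose in *chd4*(RNAi) at day 12, and 13 fell and 4 rose in *p53*(RNAi) at day 18. Counts of whole lists, here and below, include the members, which were chosen for their loss. Without the members, 6 fell and 8 rose in the former comparison, and 11 fell and 4 rose in the latter. For this and the lists below, the shares over all tested transcripts were 16.6% lower and 17.2% higher in the former. In the latter they were 19.3% and 20.2%.

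Vitellogenin (SMED30003809), a yolk-type lipid carrier with a gut pattern, headed the rule's order, and its mean *p53*(RNAi) change of days 3 and 6 was -0.30, just above the threshold. It was at 111, 123 and 125 RPKM in the day 12 controls, at 6.04, 12.8 and 7.59 RPKM in *chd4*(RNAi) (log2 -3.75, SE 0.24, adjusted p = 1.6e-16) and at 6.36, 20.3 and 10.5 RPKM in *p53*(RNAi) (log2 -3.37, SE 0.24). Unlike most members it was not called different between the knockdowns at day 12, where the difference was -0.39 (SE 0.24, adjusted p = 0.25), and at day 9 it was lower in *p53*(RNAi), at 14.8, 12.2 and 12.8 RPKM, than in *chd4*(RNAi), at 26.2, 26.6 and 22.9 RPKM (difference 0.90, adjusted p = 0.0035). Apolipophorins (SMED30020296), the longest member and a homologue of the insect carrier of lipid in body fluid, changed by -2.56 in *chd4*(RNAi) at day 12 and by -0.68 in *p53*(RNAi) at day 18, with a difference of -1.95 between the knockdowns at day 12. An ileal sodium/bile acid cotransporter (SMED30027350) had log2 changes of -2.63 and -1.75. All 5 members of the list for lipid transport and metabolism fell in both comparisons. Of the whole list of 31, 29 fell and 2 rose in *chd4*(RNAi) at day 12 and 21 fell and 7 rose in *p53*(RNAi) at day 18. Among its 26 non-members, 24 fell and 2 rose in the former, and 16 fell and 7 rose in the latter.

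Proteases and other hydrolases of the gut and lysosome made up 6 members. Digestive cysteine proteinase 2 (SMED30018252), one of the most abundant and seen in the gut, was at 4166, 4551 and 4339 RPKM in the day 12 controls and at 809, 1188 and 883 RPKM in *chd4*(RNAi) (log2 -2.2, SE 0.13, adjusted p = 5e-17). At day 18 it was at 2528 and 1925 RPKM in *p53*(RNAi), against 4877, 4822 and 3883 RPKM (log2 -1.03, SE 0.15, adjusted p = 3.1e-07). The groups did not overlap. A chymotrypsin-like elastase (SMED30031112), a serine protease, and alpha-N-acetylgalactosaminidase (SMED30004891), a lysosomal enzyme that trims sugar chains, fell in both, with log2 changes of -2.36 and -2.18 for the former and of -2.33 and -2.32 for the latter in the day 12 *chd4*(RNAi) and day 18 *p53*(RNAi) libraries. A chymase-like serine protease (SMED30035366) changed by -2.52 and -0.59. In the whole list of 50 proteases and other hydrolases, 38 fell and 10 rose in *chd4*(RNAi) at day 12, and 28 fell and 8 rose in *p53*(RNAi) at day 18. The 44 that are not members had 32 falls and 10 rises in the former, and 22 falls and 8 rises in the latter.

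**Figure D4:**
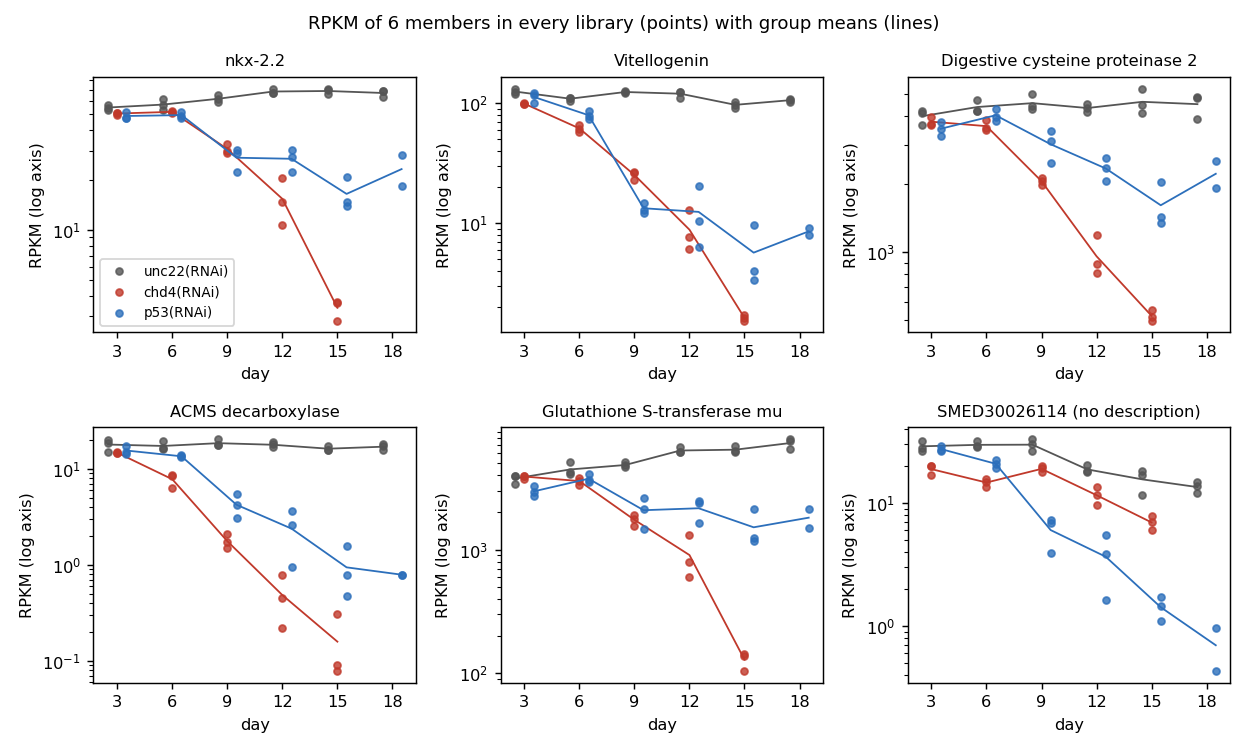
RPKM (vertical axes, logarithmic) of 6 members in every library (points) by day, with lines through the group means, for nkx-2.2, vitellogenin, digestive cysteine proteinase 2, ACMS decarboxylase, a glutathione S-transferase and SMED30026114. The controls stay level or drift slowly, chd4(RNAi) falls from day 9 on in the first 5, and SMED30026114 falls in p53(RNAi) to 0.964 and 0.428 RPKM at day 18 while chd4(RNAi) stays at 9.7 RPKM or more at day 12.

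The lowest changes of both later comparisons belonged to an enzyme of amino acid breakdown. 2-amino-3-carboxymuconate-6-semialdehyde decarboxylase, shortened to ACMS decarboxylase (SMED30019697), acts late in the breakdown of tryptophan, where it diverts an intermediate away from NAD synthesis. It was at 18.1, 16.7 and 18.8 RPKM in the day 12 controls and at 0.218, 0.778 and 0.454 RPKM, or 4, 18 and 11 reads, in *chd4*(RNAi) (log2 -4.26, SE 0.23, adjusted p = 2.5e-18). Its *p53*(RNAi) libraries of day 18 were at 0.788 and 0.787 RPKM (log2 -3.76, SE 0.26, adjusted p = 3.7e-15). With a pseudocount of 0.5 such low values understate the change. Aldehyde dehydrogenase 8A1 (SMED30028611), the enzyme that follows it in mammals, changed by -3.37 and -1.42 on these days. The enzyme that precedes it, 3-hydroxyanthranilate 3,4-dioxygenase (SMED30010200), was named after its values were seen and changed by -2.22 and -1.07. D-aspartate oxidase (SMED30033916), which oxidises acidic D-amino acids and was seen in the gut, was at 61.2, 60.5 and 65.7 RPKM in the day 12 controls and at 2.68, 3.87 and 2.59 RPKM in *chd4*(RNAi) (log2 -4.17, SE 0.13). Of the 22 listed enzymes of amino acid breakdown, 19 fell and 1 rose in *chd4*(RNAi) at day 12, and 14 fell and 6 rose in *p53*(RNAi) at day 18. Without the members, 15 of 18 fell and 1 rose in the former, and 10 fell and 6 rose in the latter.

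Transporters formed the largest group. The list of solute carriers and exchangers held 13 members, that of multidrug and toxin extrusion proteins 7, and that of ABC transporters 3. Of all 80 listed solute carriers, 68 fell and 8 rose in *chd4*(RNAi) at day 12, and 59 fell and 16 rose in *p53*(RNAi) at day 18. Among the 67 non-members, 55 fell and 8 rose in the former, and 46 fell and 16 rose in the latter. Of the 13 ABC transporters tested, 12 fell and 1 rose in the former and 9 fell in the latter. The 10 tested non-members had 9 falls and 1 rise in the former and 6 falls in the latter. The homologue of SLC52 (SMED30034985), which carries riboflavin into cells, was at 15.1, 16.5 and 15.6 RPKM in the day 12 controls, at 0.188, 0.634 and 0.32 RPKM in *chd4*(RNAi) and at 5.43, 8.25 and 7.43 RPKM in *p53*(RNAi). Its changes were -4.24 and -1.13, and the difference of -3.11 (SE 0.17, adjusted p = 3e-18) was the widest among the members toward *chd4*(RNAi). Of the extrusion proteins, which export organic cations in exchange for protons, SMED30006516 had a log2 change of -3.09 in *chd4*(RNAi) at day 12 and of -0.82 in *p53*(RNAi) at day 18, SMED30002443 of -2.47 and -1.35, and SMED30030864 of -2.29 and -0.63. The day 18 calls of SMED30030864 and of the chymase-like protease (SMED30035366) were lost without *p53*(RNAi) day 18 replicate 3. The 7 members were 58.3% of the 12 listed extrusion proteins, all of which fell in *chd4*(RNAi) at day 12, while 11 fell in *p53*(RNAi) at day 18. Of the 5 that are not members, 5 fell in the former and 4 in the latter. A pair of members described as Protein white, an ABC transporter known in flies for carrying eye pigment precursors, changed by -3.96 and -2.95 (SMED30017487) and by -3.15 and -2.2 (SMED30032299). The authors' alignment kept reads that matched several transcripts, so members with the same description may share reads and are not independent.

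Metal and cofactor genes were fewer. One zinc transporter ZIP1 homologue (SMED30013960), which brings zinc into the cytoplasm, was at 69.9, 72.5 and 70.9 RPKM in the day 12 controls and at 4.75, 8.45 and 5.05 RPKM in *chd4*(RNAi) (log2 -3.49, SE 0.13, adjusted p = 9.2e-23). Its *p53*(RNAi) libraries of day 18 were at 33.0 and 23.6 RPKM (log2 -1.29, SE 0.15). Another ZIP1 homologue (SMED30012799) was not called at day 9 of *p53*(RNAi), with a log2 change of -0.09 (adjusted p = 0.69), and its loss reached -0.61 at day 12 and -1.28 at day 18. Copper-transporting ATPase 2 (SMED30008855), which exports copper and was seen in the gut and in single brain cells, changed by -2.01 in *chd4*(RNAi) at day 12 and by -0.93 in *p53*(RNAi) at day 18. Of the 20 listed genes of metal uptake and storage, 12 fell and 7 rose in *chd4*(RNAi) at day 12, and 9 fell and 5 rose in *p53*(RNAi) at day 18, so that the members do not stand for the list. Without the members, 9 of 17 fell and 7 rose in the former, and 6 fell and 5 rose in the latter. Among 6 members of the list for vitamins and cofactors, PdxT (SMED30019306), a subunit of a vitamin B6 synthase, had log2 changes of -2.64 and -1.58 on these days, and pantothenate kinase 4 (SMED30010964), of a family known for coenzyme A synthesis, of -2.62 and -1.62. Of all 22 in this list, 19 fell and 1 rose in the former and 17 fell and 3 rose in the latter. Its 16 non-members had 13 falls and 1 rise in the former, and 11 falls and 3 rises in the latter.

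A glutathione S-transferase of class mu (SMED30021545), an enzyme that couples glutathione to foreign compounds, was the most abundant member. It was at 6137, 6136 and 6756 RPKM in the day 12 controls and at 606, 1317 and 791 RPKM in *chd4*(RNAi) (log2 -2.88, SE 0.20, adjusted p = 3.1e-15). Its *p53*(RNAi) libraries of day 18 were at 2134 and 1496 RPKM, against 7846, 7516 and 6514 RPKM (log2 -2.02, SE 0.22). A Natterin-4 homologue (SMED30005863), named after a fish toxin, had log2 changes of -2.66 and -1.24. Of the 3 cytochrome P450 members, which are oxidising enzymes, the 3A24 homologue (SMED30016464) was seen in the gut and changed by -2.91 and -1.27. The cholesterol 24-hydroxylase homologue (SMED30005941) had a larger change in *p53*(RNAi) at day 18, -1.77, than in *chd4*(RNAi) at day 12, -1.30, and the knockdowns differed by -0.05 at day 12 (SE 0.12, adjusted p = 0.82). Of the whole list of 27 cytochromes P450, 23 fell and 3 rose in *chd4*(RNAi) at day 12, and 19 fell and 5 rose in *p53*(RNAi) at day 18, by up to 3.28. Among the 24 non-members, 20 fell and 3 rose in the former, and 16 fell and 5 rose in the latter.

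Signalling, traffic and matrix genes were also present. TNF receptor-associated factors, adaptors that relay signals from surface receptors, counted 4 members of 27 listed. Of them TRAF5 (SMED30023307) changed by -2.13 and -1.55, and 2 TRAF6 homologues (SMED30014865 and SMED30017236) by -2.51 and -0.95 and by -2.06 and -0.98. In the whole list, 22 fell and 4 rose in *chd4*(RNAi) at day 12, and 16 fell and 5 rose in *p53*(RNAi) at day 18. Its 23 non-members had 18 falls and 4 rises in the former, and 12 falls and 5 rises in the latter. Of 11 listed matrix genes, 10 fell in either comparison, as did 7 of the 8 that are not members. All 3 matrix members were lysyl oxidase homologues, which cross-link collagen and elastin in mammals, with log2 changes in *chd4*(RNAi) at day 12 of -3.09 (SMED30027243), -2.45 (SMED30010986) and -2.19 (SMED30008521) and in *p53*(RNAi) at day 18 of -1.31, -1.22 and -1.03. The last of these *p53*(RNAi) calls was lost without *p53*(RNAi) day 18 replicate 3. A homologue of the small GTPase Rac1 (SMED30000430), a regulator of the actin cytoskeleton, was at 42.2, 50.6 and 49.1 RPKM in the day 12 controls, at 2.76, 5.78 and 3.92 RPKM in *chd4*(RNAi) and at 27.1, 28.8 and 35.0 RPKM in *p53*(RNAi). Its change was -3.41 in *chd4*(RNAi) and -0.64 in *p53*(RNAi), and its *p53*(RNAi) change at day 18, -0.48, was not called without replicate 3 of that group or without replicate 1 or 2 of its controls. DENND3 (SMED30003102), an activator of Rab GTPases in vesicle traffic, changed by -3.56 and -2.43. Of 36 listed small GTPases and traffic genes, 34 fell and 1 rose in *chd4*(RNAi) at day 12, and 31 fell and 1 rose in *p53*(RNAi) at day 18. Without the members, 27 of 29 fell and 1 rose in the former, and 24 fell and 1 rose in the latter.

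**Figure D5:**
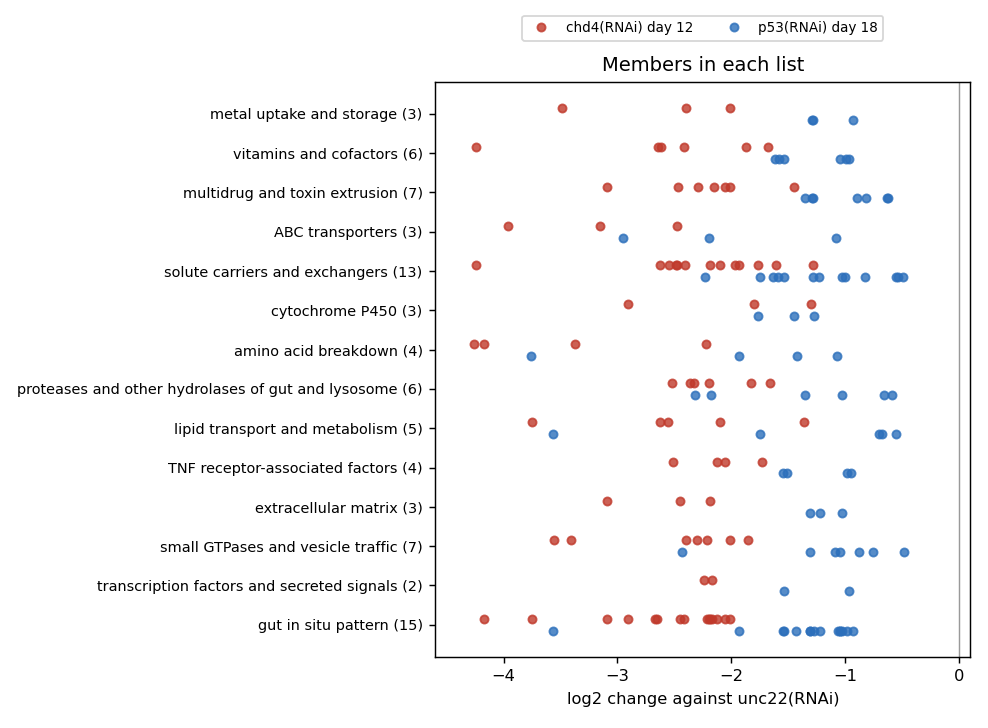
Log2 change against unc22(RNAi) (horizontal axis) of the members in each list (rows, with the number of members), for day 12 of chd4(RNAi) and for p53(RNAi) at day 18, 1 point a member. Every point is below 0. The chd4(RNAi) points run down to -4.26 and lie further left in each list by their median, while single members such as cholesterol 24-hydroxylase have the larger change in p53(RNAi).

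The 50 members without a description included the widest exceptions. SMED30026114 was the 1 member higher in *chd4*(RNAi) than in *p53*(RNAi) at day 12. It was at 18.2, 17.8 and 20.3 RPKM in the day 12 controls, at 11.6, 13.4 and 9.7 RPKM in *chd4*(RNAi) (log2 -0.69, SE 0.21, adjusted p = 0.01) and at 1.63, 3.86 and 5.48 RPKM in *p53*(RNAi) (log2 -2.34, SE 0.21). Its *chd4*(RNAi) call was lost without *chd4*(RNAi) day 12 replicate 3, and the difference between the knockdowns was 1.65 (SE 0.21, adjusted p = 5.3e-08). SMED30006480 stood opposite, at 323, 339 and 379 RPKM in the day 12 controls and at 14.3, 34.8 and 20.2 RPKM in *chd4*(RNAi) (log2 -3.97), with -1.07 in *p53*(RNAi) at day 12 and -2.74 at day 18. This step from day 12 to day 18, -1.67 (adjusted p = 2.3e-06), was the largest deepening among the members in *p53*(RNAi).

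SMED30010350, the second most abundant member, was lost more slowly. It was at 5023, 4720 and 6160 RPKM in the day 12 controls, at 1399, 2865 and 1835 RPKM in *chd4*(RNAi) (log2 -1.44, adjusted p = 1e-08) and at 4285, 4047 and 4291 RPKM in *p53*(RNAi) (log2 -0.32, adjusted p = 0.18). Its change at day 18 of *p53*(RNAi) passed the test (log2 -1.04, adjusted p = 3.4e-05). The 2 members not called in *p53*(RNAi) at day 18 were SMED30024502 (log2 -0.37, SE 0.24, adjusted p = 0.24) and SMED30017132 (log2 -0.57, SE 0.30, adjusted p = 0.13). In the day 18 controls they were at 3.14 to 5.27 RPKM and 3.96 to 4.92 RPKM.

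In the controls the members' medians moved little, though by day 18 a larger share of members than of all transcripts was called lower. From day 9 to day 12 of *unc22*(RNAi) 5 were lower and 10 higher, against 5.21% and 4.88% of all transcripts, with a median of 0.04. From day 9 to day 18, 33 were lower and 18 higher, against 11.3% and 9.77%, with a median of -0.12. These counts moved with the fit, to between 1 and 23 lower and 1 and 25 higher at day 12, and to between 18 and 52 lower and 4 and 29 higher at day 18. The largest falls to day 18 were in a major facilitator superfamily transporter (SMED30015925, -1.46), SMED30026114 (-1.11) and SMED30010350 (-1.0), and the largest rises in PdxT (SMED30019306, 0.93), a transmembrane protein 56-A homologue (SMED30017153, 0.87) and Protein rolling stone (SMED30020068, 0.83).

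Within groups of replicates the members moved together. Among the *chd4*(RNAi) libraries of day 12, replicate 2 was the highest for 139 of the 150 members, against 36.9% of all tested transcripts, and replicate 1 the lowest for 127, against 37.1%. Replicate 1 of *p53*(RNAi) day 12 was the lowest for 120, against 30.2%. The members are therefore not independent of each other, and counts of members are not counts of independent observations.

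The 159 transcripts lost earlier are given for description only, since the rule itself set them apart from the members and no difference between the sets was tested. Their median change in *p53*(RNAi) was -0.43 and -0.81 at days 3 and 6, which the rule used, and -1.99 at day 12. In *chd4*(RNAi) it was -0.65 at day 6, -1.33 at day 9 and -1.75 at day 12. The members had -0.30, -1.31 and -2.29 on these *chd4*(RNAi) days. Of the 159, 49 were lower and 67 higher in the *chd4*(RNAi) libraries than in those of *p53*(RNAi) at day 12. The median difference was 0.17, and the members had 142 lower and 1 higher. Of the 64 earlier transcripts with an in situ pattern, 46 had that of *AGAT-1*, an epidermal progeny marker in the mesenchyme, and 11 had gut in it. No member was listed with the *AGAT-1* pattern, but Dedicator of cytokinesis protein 1 (SMED30011727), named after its values were seen and 1 of the 15 members with a gut pattern, was also seen in discrete mesenchymal cells. The 15 members with a gut pattern were 36.6% of the 41 transcripts listed with one.

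Other gut transcripts fell on the same days, while not all markers of other cells did so in *chd4*(RNAi). Of the 26 listed gut transcripts that are not members, 25 were lower in *chd4*(RNAi) at day 12, with a median of -1.12, and 26 in *p53*(RNAi) at day 18, with a median of -1.04. Their summed level was 1308 to 1318 RPKM in the day 12 controls and 523 to 598 RPKM in *chd4*(RNAi), and 1220 to 1308 RPKM in the day 18 controls and 532 to 593 RPKM in *p53*(RNAi), with none at 0. Of 58 transcripts with an *AGAT-1* pattern, 55 and 58 were lower in these comparisons, and their sum was 6078 to 6412 RPKM in the day 12 controls and 2109 to 2371 RPKM in *chd4*(RNAi), and 4822 to 5236 RPKM in the day 18 controls and 781 to 965 RPKM in *p53*(RNAi). The 21 transcripts with a neoblast-like pattern summed to 656 to 666 RPKM in the day 12 controls and 684 to 704 RPKM in *chd4*(RNAi), where 5 were lower and 4 higher, but to 255 to 278 RPKM in *p53*(RNAi) at day 18, where all 21 were lower, against 603 to 619 RPKM. The 10 transcripts with an epidermal pattern summed to 1615 to 1633 RPKM in the day 12 controls and 1173 to 1238 RPKM in *chd4*(RNAi). At day 18 they summed to 569 to 672 RPKM in *p53*(RNAi), against 1428 to 1523 RPKM. The paper saw *zpuf-6* and *vim-3* both in the epidermis and in mesenchymal cells. At day 9 of *chd4*(RNAi) *zpuf-6* was lower (log2 -0.33, limma, adjusted p = 0.0027), while *vim-3* was not called. Neither was called in *chd4*(RNAi) at day 12 (log2 -0.16 for *zpuf-6* and 0.12 for *vim-3*). At day 18 of *p53*(RNAi) both were lower (log2 -1.49 and -1.15). The part of these cells in the loss of the members was not tested, and the study had chosen these lists on the same samples.

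At the edge of the rule the last members kept were YPT6 (SMED30029369), Marf (SMED30023988) and Natterin-4 (SMED30019264), with day 15 sums of -3.474, -3.468 and -3.452. The next were SMED30021814, a homologue of SLC26A6 (SMED30008806) and an extrusion protein (SMED30021877), with sums of -3.437, -3.437 and -3.416. The 129 transcripts past the thresholds but not kept had a median of -1.18 in *chd4*(RNAi) at day 12 and of -0.83 in *p53*(RNAi) at day 18. The mean *p53*(RNAi) change of days 3 and 6 was -0.30 for vitellogenin (SMED30003809) and -0.297 for the glutathione S-transferase (SMED30021545), both kept, and -0.303 for an Mpv17-like protein (SMED30035157), which was not.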

How the data were processed

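RNA was sequenced from 50 libraries in 17 groups of RNAi and day. The authors made stranded TruSeq mRNA libraries, sequenced them on a HiSeq instrument, processed reads with CASAVA 1.8.2, mapped these with Bowtie onto assembled transcripts, keeping best matches with few mismatches and few places, counted them with a script of their own and used edgeR. The deposited values are RPKM, and how the authors scaled them is not given in the sources used here. Strand was not stated for the counting, so antisense transcripts may share reads.

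Because RPKM are not counts, limma 3.58.1 (R 4.3.3) with an intensity trend was fitted to log2(RPKM + 0.5) over all 17 groups for the 25079 transcripts that reached 1 RPKM in 2 or more libraries, leaving 9978 out. Prior degrees of freedom came to 5.32. All p-values were two-sided and adjusted by the Benjamini-Hochberg method over all tested transcripts in each comparison, with 0.05 as the threshold. Fold changes are on this log2 scale and understate those of low transcripts. Replicates are biological replicates of pooled worms. Depth was recovered from the whole-read steps of 18710 transcripts (53.4%), all with lengths whole within 0.1 bases, and entered no test. Since whole-read steps were not recovered in this way for the other transcripts, no count test was run. Python 3.11.15, numpy 2.4.6, pandas 2.3.3 and matplotlib 3.10.9 did the rest.

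The members and the lists, made by words in Swiss-Prot descriptions and in situ patterns, were chosen with earlier results of these data known. Named were members with a gene name among the study's candidates, the 5 most abundant, the 5 lowest described ones in *chd4*(RNAi) day 12 and *p53*(RNAi) day 18, the 5 lowest in *chd4*(RNAi) day 9, up to 3 per list, those not called, and the extremes of the difference between knockdowns, of the control course and of the rule's order. Alternatives were pseudocounts of 0.1 and 2, other filters, median-ratio scaling, a fit of only the groups compared, replicate blocks and leaving out each library. One more, without both libraries that stood apart, was chosen after seeing the data. Replicate numbers were not used as pairs in the main fit. The deviations of same-numbered libraries of a day had correlations of -0.0363 to 0.145, with 4 of 47 pairs over 0.1. For different numbers they ran from -0.168 to 0.122, with 1 of 94 pairs over 0.1. These low correlations do not settle whether the numbers pair samples.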

Additional observations from a re-analysis of the deposited data

Results flagged for a closer look

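Changes of an effect between days were looked at again where the test of the change itself called members. From day 9 to day 12 the loss in *chd4*(RNAi) deepened in 125 of the 150 members (median -1.07), against 2.35% of all tested transcripts, and that in *p53*(RNAi) in 7 (median -0.22), against 4.32%. From day 12 to day 18 the loss in *p53*(RNAi) deepened in 13 members, led by SMED30006480, and lessened in 1, a Natterin-4 homologue (SMED30019264), by 0.58 on the log2 scale, against 6.23% and 5.53% of all transcripts. The choice of members by their day 15 changes favoured the deepening in *chd4*(RNAi). In *p53*(RNAi) the counts toward a deeper loss lie near the shares of all transcripts and alone say little about the members as a group. Toward a smaller loss, no member passed from day 9 to day 12, against 2.58%, and 1 did from day 12 to day 18. The median step from day 9 to day 12 was -0.22 in the members, against 0.03 in all tested transcripts. The day 18 group has 2 libraries.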

How the results depend on the processing

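Leaving out 1 library at a time gave 138 to 139 members lower at day 9 of *chd4*(RNAi), 149 to 150 at day 12, 122 to 135, 142 to 147 and 129 to 148 at days 9, 12 and 18 of *p53*(RNAi), and 69 to 95 and 135 to 146 lower with *chd4* than with *p53* RNAi at days 9 and 12. The loss deepened from day 9 to day 12 in 116 to 132 members in *chd4*(RNAi) and in 2 to 9 in *p53*(RNAi), and from day 12 to day 18 in 6 to 20. Lower by more than 1 at day 9 of *p53*(RNAi) were 27 to 43. At day 6 of *chd4*(RNAi) the count of 46 was 21 to 37, and 23 without both libraries that stood apart. With a replicate block, by number or by number within the day, 142 or 143 members were lower at day 9 of *chd4*(RNAi), 150 or 150 at day 12 and 138 or 139 at day 9 of *p53*(RNAi).

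Small counts depended on the settings. The *p53*(RNAi) step from day 9 to day 12 gave 11 members with a pseudocount of 2, 4 with no filter, 11 with the block within the day, 0 when only the groups compared were fitted with limma and 2 without both libraries that stood apart. At day 3 of *chd4*(RNAi) the fit of only the groups compared gave 2. In the controls, the 5 lower at day 12 than at day 9 became 3, 9 and 2 with pseudocounts of 0.1 and 2 and no filter, 23 with the block within the day and 15 with only these groups fitted, and 1 to 3 with 1 library left out. The 10 higher became 1, 25 and 3 to 6 in the last 3 of these, so that with the block within the day more members were lower than higher, the reverse of the reported counts. The 33 lower at day 18 than at day 9 became 18, 52 and 24 to 34, and the 18 higher 4, 29 and 9 to 17. The cause of these shifts was not tested. The deviations of same-numbered libraries had a median correlation of 0.0277, against -0.0178 for different numbers. This does not settle whether the numbers pair samples.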
